A study of Caenorhabditis elegans with 14 samples.

Results

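The response of *Caenorhabditis elegans* lacking the heme peroxidase gene *skpo-1* to the Gram-positive pathogen *Enterococcus faecalis* was measured by RNA-seq across all genes. The comparison used the 7 *skpo-1* libraries of the 14 in the series: 4 from mutant animals exposed to *E. faecalis* OG1RF and 3 from mutant animals exposed to *E. coli* OP50, the ordinary laboratory food. Libraries were chosen by their labelled strain and treatment only. Both groups carried the deletion allele *skpo-1*(ok1640) in a single strain, GF89, so the bacterium and not the genotype differed between them. Animals were placed on the bacteria at the L4 stage, the last larval stage, and total RNA of whole animals was taken after 16 h, when they were labelled day 1 adults. *E. faecalis* was grown on brain heart infusion agar with gentamycin and the control bacterium was not, so the effects of the bacterium and of its plate cannot be told apart. The other 7 libraries came from the wild-type parent strain N2 on *E. faecalis* (3) and on *E. coli* (4), and they entered the fit for the spread between replicates and for the test of whether the mutant's response differed from that of N2. The replicates were described as biological, but nothing stated which animals or cultures each came from, so p-values measure the spread between these libraries.

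SKPO-1 is a secreted heme peroxidase of the worm's skin, an enzyme class that uses hydrogen peroxide made by dual oxidases such as BLI-3. Worms have no circulating immune cells. Their defense rests on barriers (the collagen cuticle, the gut lining) and on secreted effectors such as lysozymes, C-type lectins and small antimicrobial peptides, which are switched on by the p38 kinase cascade, by the transcription factors HLH-30 and DAF-16, and by surveillance of damage. *C. elegans* also cannot make its own heme or vitamin B12 and takes both from the bacteria it eats, so a change of bacterium is a change of diet as well.

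Before the results, 3 measured properties of the libraries are needed. Level is given as CPM, the count divided by a library size scaled by TMM (a factor that balances libraries of different composition) and not divided by transcript length, so levels are compared between libraries and not between genes. The *skpo-1* libraries held from 15174830 to 36682565 counts. The targeted gene matched the labels: in the mutant, *skpo-1* lay between 2.35 and 2.66 CPM with *E. coli* and between 1.62 and 2.26 CPM with *E. faecalis*, against 283 to 314 CPM and 112 to 199 CPM in N2. Markers of every tissue searched for (intestine, skin, body muscle, neurons, pharynx, germ line, oocyte and yolk, sperm, larval cuticle) were present in all 7 libraries, with none of the 36 markers at 0. *E. faecalis* replicate 4 was low in long transcripts. Relative to its group, its median log2 level was -1.0 for genes with a transcript over 6000 nt and -0.45 between 4000 and 6000 nt, while below 2000 nt it lay between -0.03 and -0.01. The same library was low in the summed body muscle markers (487 CPM against 1725 to 2176 CPM in the other *E. faecalis* libraries and 3316 to 4389 CPM on *E. coli*) and in the summed oocyte and yolk markers (22130 CPM against 52875 to 79683 and 68243 to 92976 CPM). N2 on *E. coli* replicate 2 had the same trend (-1.25 over 6000 nt). Main counts are therefore also given without both libraries, and some counts of list members with the trend of level on transcript length removed from each library. Both checks were added after the data had been seen. The response itself also ran with length. Among genes above a mean of 5 CPM, the median log2 fold change was 0.04 up to 500 nt and -0.63 over 6000 nt. Without both libraries these medians were 0.03 and -0.41, so leaving them out did not take the trend away. With the length trend removed they were -0.14 and -0.12. The part of transcript length in single falls was not tested.

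**Figure D1:**
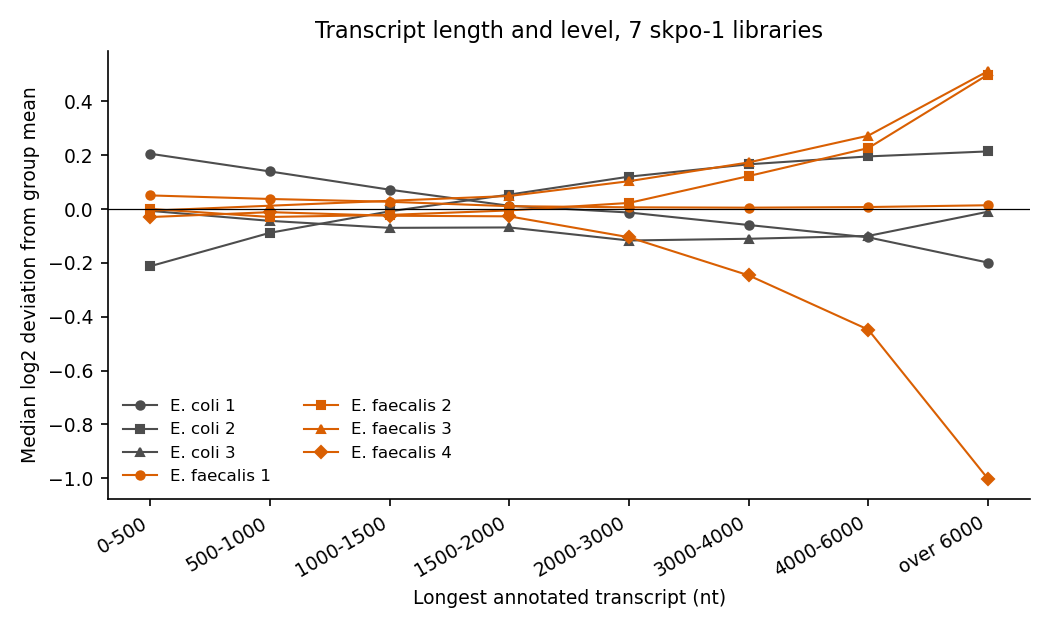
Median log2 deviation of gene levels from the mean of the library's own group (y axis) by the length of the longest annotated transcript in nt (x axis), for genes above 5 CPM in each of the 7 *skpo-1* libraries (grey, *E. coli*; orange, *E. faecalis*; marker shape, replicate). *E. faecalis* replicate 4 falls to -1.0 for transcripts over 6000 nt, where the other 6 libraries lie between -0.20 and 0.51.

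*E. faecalis* changed the transcriptome of the *skpo-1* mutant widely, and mostly upward. Of 15685 genes with enough counts to be tested, 1849 changed (11.8%), of which 1573 were upregulated (10.03% of tested genes) and 276 downregulated (1.76%). A gene was called changed when its Benjamini-Hochberg adjusted p over all tested genes was below 0.05 in edgeR's quasi-likelihood test and its log2 fold change was at least 1 in size. At an adjusted p below 0.01, 794 genes (5.06%) changed. At 4-fold or more, 487 genes rose and 86 fell. The median log2 fold change over all tested genes was 0.12, and 6006 genes had an unadjusted p below 0.05. Libraries of the 2 groups did not overlap in 1819 of the 1849 changed genes, while 45.7% of all tested genes also did not overlap. On the first principal component of the 500 most variable genes, which held 78.0% of the variance, the *E. faecalis* libraries lay between 22.8 and 30.2 and the *E. coli* libraries between -37.8 and -32.7.

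The rise was concentrated in genes of low level. Genes with a mean below 1 CPM had a median log2 fold change of 0.74, and those between 1 and 10 CPM one of 0.53. Between 10 and 100 CPM the median was -0.14, and above 100 CPM it was -0.42. Accordingly 17.1% of the genes between 1 and 10 CPM were upregulated but 2.95% of those above 100 CPM. The 1573 upregulated genes together held from 1.17% to 1.40% of the counts in the *E. coli* libraries and from 4.76% to 5.83% in the *E. faecalis* libraries, and the 276 downregulated genes went from between 8.02% and 8.41% to between 2.49% and 2.99%. The number of calls leaned on single libraries. It was 774 without *E. coli* replicate 1, 1027 without *E. coli* replicate 2 and 1219 without *E. faecalis* replicate 2, and upregulated genes numbered 1047 without *E. faecalis* replicate 4. Called in every one of the 14 fits that each left out 1 library were 667 genes (4.25% of those tested), 518 up (3.30%) and 149 down (0.950%). Such genes are called robust here, and of the 166 genes named in the text 133 are robust, 8 are called but not robust and 25 are not called. Without both libraries low in long transcripts, 1998 genes changed.

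**Figure D2:**
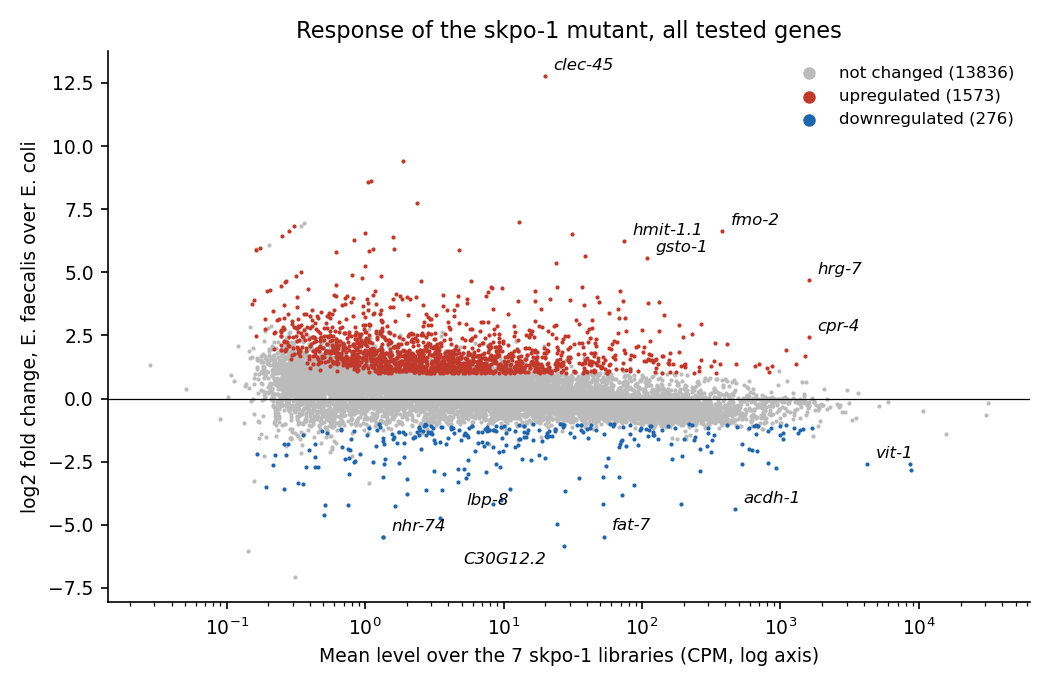
Log2 fold change of *E. faecalis* over *E. coli* in the *skpo-1* mutant (y axis) against the mean level over the 7 libraries in CPM (x axis, log scale), 1 point per tested gene. The 1573 upregulated genes (red) lie mostly at low level, and the 276 downregulated genes (blue) reach the highest levels, with *vit-1* near the right edge. The fitted value of *clec-45*, at the top, rests on 0 counts on *E. coli*.

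The 12 largest rises among called genes that reached a mean of 10 CPM in 1 group and whose libraries did not overlap included 3 heme genes, 2 C-type lectins and 3 detoxification enzymes. The flavin-containing monooxygenase gene *fmo-2*, whose enzyme oxidizes foreign compounds and which is widely used as a marker of pathogen and stress responses, measured 4.79, 6.85 and 8.46 CPM on *E. coli* and 615, 718, 572 and 743 CPM on *E. faecalis*. No *E. faecalis* library came near the *E. coli* range, and the log2 fold change was 6.64 ± 0.29 (± SE of the fit here and below; adjusted p = 3.54e-09). The gene lies on chromosome IV at 10682524 to 10684367 (WBcel235). *hrg-7*, which encodes a secreted protease-like protein that carries information on heme status between tissues, rose from 90.2, 83.0 and 145 CPM to 2987, 2827, 2478 and 2673 CPM (4.69 ± 0.47, adjusted p = 2.26e-05). It lies on chromosome V at 12742041 to 12744171. *hmit-1.1*, a myo-inositol transporter gene known from the response to high salt, measured 1.15, 1.45 and 2.73 CPM on *E. coli* and 115, 178, 134 and 88.5 CPM on *E. faecalis* (6.25 ± 0.38, adjusted p = 1.19e-07). *gsto-1*, an omega-class glutathione transferase, went from 3.13 to 4.89 CPM to 165 to 219 CPM (5.55 ± 0.43). Separate libraries were a condition of the choice, so the wide gap in these 4 genes is a description only.

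A C-type lectin, *clec-45*, had 0 counts in all 3 *E. coli* libraries and measured 37.4, 31.4, 35.3 and 34.7 CPM on *E. faecalis*, at least 825-fold higher when 3 counts over the *E. coli* group are taken as the floor. *clec-60*, another C-type lectin that is a known target of bacterial infection, measured 0.373, 0.705 and 0.769 CPM on *E. coli* and 41.1, 103.6, 37.98 and 34.7 CPM on *E. faecalis* (6.52 ± 0.71), with replicate 2 well above the other 3. *Y65B4BR.1* rose from 1.12 to 1.55 CPM to 53.0 to 86.8 CPM (5.63 ± 0.27), *H02F09.3* from 1.24 to 4.42 CPM to 25.5 to 118 CPM (4.43 ± 0.70), and *Y49F6B.8* from 0.249 to 1.33 CPM to 6.64 to 16.5 CPM (4.42 ± 0.57). The cytochrome P450 gene *cyp-13A7* stood at 1.31, 2.15 and 2.38 CPM on *E. coli* and 10.8, 49.1, 54.2 and 50.5 CPM on *E. faecalis* (4.43 ± 0.55). Its replicate 1 lay far below the other *E. faecalis* libraries, yet above every *E. coli* library.

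The 12 largest falls, taken by the same rule, included *fat-7* and a pair of acyl-CoA dehydrogenases. *fat-7*, a stearoyl-CoA desaturase that makes oleic acid, measured 124, 141 and 95.4 CPM on *E. coli* and 2.53, 3.31, 2.57 and 2.44 CPM on *E. faecalis*, a log2 fold change of -5.46 ± 0.21 (adjusted p = 1.25e-09). *acdh-1*, the acyl-CoA dehydrogenase that starts the propionate shunt, fell from 983, 909 and 1199 CPM to 46.9, 44.3, 45.5 and 61.2 CPM (-4.38 ± 0.22, adjusted p = 1.02e-08). Its relative *acdh-2* went from 48.2 to 61.5 CPM to 1.14 to 2.64 CPM (-4.95 ± 0.34). In these 3 genes every *E. coli* library lay far above every *E. faecalis* library, where separate libraries were again a condition of the choice. The folate transporter gene *folt-2* measured 408, 391.6 and 456 CPM on *E. coli* and 28.4, 19.9, 23.9 and 21.7 CPM on *E. faecalis* (-4.16 ± 0.30). *pmp-5*, a peroxisomal ABC transporter, dropped from 142 to 176 CPM to 9.17 to 12.1 CPM (-3.81 ± 0.17), and the short-chain dehydrogenase *dhs-25* from 145 to 228 CPM to 14.5 to 19.5 CPM (-3.44 ± 0.16). The F-box gene *fbxa-72* stood at 18.3 to 32.02 CPM and 1.13 to 2.84 CPM (-3.59 ± 0.36).

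Among falling genes known only by a sequence name, *C30G12.2* measured 62.2, 74.1 and 49.5 CPM on *E. coli* and 1.07, 0.778, 1.63 and 0.983 CPM on *E. faecalis* and had the largest fall of these 12 (-5.82 ± 0.25, adjusted p = 3.47e-09). *T05E12.6* went from 101 to 129 CPM to 4.21 to 7.55 CPM (-4.16 ± 0.22), *T22B7.7* from 53.6 to 67.3 CPM to 3.14 to 6.78 CPM (-3.65 ± 0.40), *C09B8.4* from 15.5 to 21.1 CPM to 0.778 to 1.38 CPM (-4.17 ± 0.28), and *F15E6.4* from 17.5 to 25.1 CPM to 0.977 to 1.65 CPM (-4.03 ± 0.38). The 12 leading genes in each direction were all robust.

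**Figure D3:**
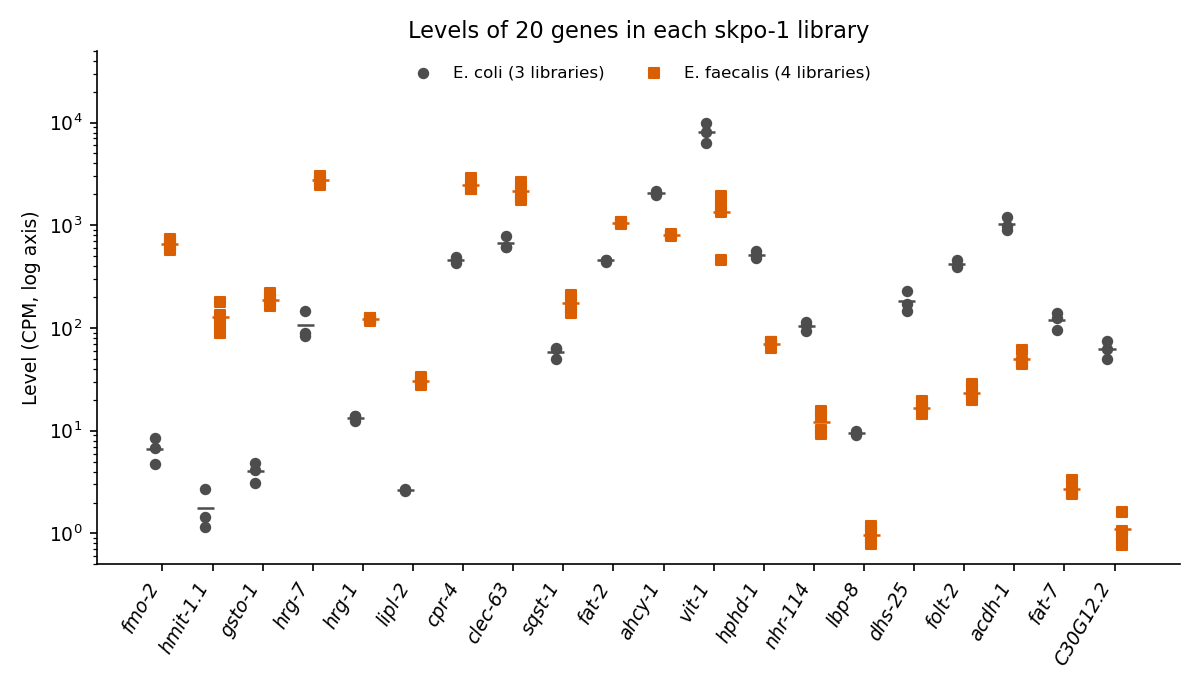
Level in CPM (y axis, log scale) of 20 genes in each *skpo-1* library on *E. coli* (grey circles, 3) and *E. faecalis* (orange squares, 4), with group means as lines. The 2 groups are separate for all 20 genes, as for 45.7% of all tested genes. The one *E. faecalis* point far below its group is *vit-1* in replicate 4, at 463 CPM.

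Secreted defense effectors held both risers and fallers. C-type lectins, secreted sugar-binding proteins of the gut and skin, had 32 members up and 11 down among the tested genes of 237 listed (26.02% and 8.94% of those tested, median log2 fold change 0.61), of which 22 and 6 were robust. The fallers numbered 7 without *E. coli* replicate 1. *clec-63* rose from 610.5, 621 and 792 CPM to 1906, 2656, 2254 and 1770.1 CPM (1.67 ± 0.27, adjusted p = 0.00114) and *clec-65* from 49.0 to 57.1 CPM to 131 to 174 CPM (1.58 ± 0.18). Further risers included *clec-85* (19.6 to 23.6 CPM to 67.7 to 137 CPM), *clec-166* (9.75 to 15.2 CPM to 38.2 to 64.5 CPM) and *clec-71* (0.391 to 0.909 CPM to 7.02 to 11.6 CPM). On the other side, *clec-209* fell from 205, 206 and 155 CPM to 63.7, 82.8, 80.0 and 51.5 CPM (-1.44 ± 0.28) and *clec-210* from 8.81 to 12.8 CPM to 0.908 to 1.97 CPM (-3.17 ± 0.40). Members of 1 family thus moved in opposite directions. Their libraries did not overlap, but nor did those of 1819 of the 1849 changed genes and of 45.7% of all tested genes.

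Lysozymes, enzymes that cut bacterial cell walls, split in the same way. Of 13 tested, 4 were up and 2 down, beside 10.03% up and 1.76% down over all tested genes. The invertebrate lysozyme *ilys-2* measured 0.591, 0.157 and 0.979 CPM on *E. coli* and 3.86, 4.63, 5.09 and 5.66 CPM on *E. faecalis* (3.13 ± 0.70, adjusted p = 0.00833), whereas *ilys-5* fell from 661, 509 and 521 CPM to 129, 138, 144 and 106 CPM (-2.13 ± 0.20, adjusted p = 1.40e-05). *ilys-3*, a lysozyme with known activity against Gram-positive bacteria, stood at 0.591, 0.587 and 1.258 CPM on *E. coli* and 2.84, 5.67, 2.07 and 6.25 CPM on *E. faecalis* (2.44 ± 0.59, adjusted p = 0.0125), a call that was lost without *E. coli* replicate 1 (adjusted p = 0.0759) or replicate 2 (0.0656). The upregulated lysozymes numbered 1 without either of these libraries, and the fallers 1 without *E. coli* replicate 1 or 2 or *E. faecalis* replicate 1, 3 or 4. *lys-7* measured 56.8 to 92.8 CPM and 83.5 to 134 CPM and was not changed (0.55 ± 0.39, adjusted p = 0.31).

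Saposin-like and defensin-like peptides, which act on membranes, had 9 members up and 1 down of 25 tested, but only 2 remained up without *E. coli* replicate 2 and 3 without *E. coli* replicate 1, and between 4 and 5 without *E. coli* replicate 3, *E. faecalis* replicate 2 or 4, or N2 on *E. coli* replicate 3. The robust pair was *spp-23* (10.6, 9.67 and 10.3 CPM on *E. coli* and 34.7, 45.5, 30.9 and 29.9 CPM on *E. faecalis*, 1.79 ± 0.37) and, in the other direction, *spp-17* (124 to 220.3 CPM to 41.3 to 79.0 CPM, -1.48 ± 0.27). The fallers were 2 without *E. coli* replicate 3 or N2 on *E. coli* replicate 2 or 4. *spp-1*, a known antibacterial saposin, was not changed (-0.96 ± 0.34, adjusted p = 0.0565).

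Genes named for their response to infection or to the insulin pathway (irg and dod) had 5 members up and 1 down of 18 tested, 4 and 1 of them robust. *irg-1* measured 0.653, 0.822 and 1.40 CPM on *E. coli* and 5.15, 5.28, 4.33 and 4.48 CPM on *E. faecalis* (2.37 ± 0.34, adjusted p = 5.24e-04). *dod-17* rose from 2.89 to 3.50 CPM to 12.8 to 18.2 CPM (2.28 ± 0.23) and *dod-22* from 0.419 to 0.591 CPM to 3.96 to 5.97 CPM (3.22 ± 0.61). *irg-6* had 2 counts over the *E. coli* group and 175 over the *E. faecalis* group, a ratio of 66.5 with a 95% exact counting interval of 18.1 to 553. *irg-8* went the other way, from 145 to 248 CPM to 56.8 to 93.1 CPM (-1.34 ± 0.27). Intervals of this kind cover counting error only.

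Small peptides of the epidermis, which answer wounding and fungal infection, had 5 up and 2 down of 17 tested, 1 of each robust. *nlp-29*, their usual reporter, rose from 6.65, 7.67 and 9.44 CPM to 20.4, 19.4, 18.02 and 30.4 CPM (1.48 ± 0.30, adjusted p = 0.00483), while *nlp-27* fell from 27.4 to 44.95 CPM to 10.2 to 14.2 CPM (-1.50 ± 0.35). The risers were 1 to 3 without *E. coli* replicate 1 or 2 or *E. faecalis* replicate 4, and the fallers 1 without *E. coli* replicate 3 or *E. faecalis* replicate 2. *nlp-29* and *nlp-27* lie in 1 cluster of related genes and moved apart.

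Regulators upstream of these effectors hardly moved. Of 18 genes of the p38 cascade and its partners, 1 was called: *cebp-1*, a bZIP transcription factor, at 10.5, 12.5 and 12.9 CPM on *E. coli* and 29.4, 34.1, 30.8 and 14.3 CPM on *E. faecalis* (1.18 ± 0.31, adjusted p = 0.0183), a call lost without *E. coli* replicate 1 (0.0902), *E. coli* replicate 2 (0.0585) or *E. faecalis* replicate 2 (0.0527). Of 30 autophagy and HLH-30 genes only *sqst-1*, which encodes the autophagy receptor p62, changed (with 1 faller in 4 of the fits that left out a library), from 49.8, 62.8 and 63.5 CPM to 158, 212, 189.8 and 141 CPM (1.58 ± 0.19, adjusted p = 1.14e-04). Transcript of *hlh-30* itself, the worm counterpart of mammalian TFEB, measured 73.9, 86.6 and 66.1 CPM on *E. coli* and 71.7, 111, 105 and 26.9 CPM on *E. faecalis* and was not changed (0.05 ± 0.41, adjusted p = 0.933). Its lowest library was *E. faecalis* replicate 4, the one low in long transcripts.

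Families tied to protein turnover and to intracellular infection had calls that were nearly all upward, beside 85.1% upward over all changed genes. F-box A genes, adaptors of ubiquitin ligases, had 30 up and 1 down of 116 tested (25.9% and 0.862%, 10 and 1 robust), with 10 up without *E. coli* replicate 1 and 19 without *E. coli* replicate 2. *fbxa-24* measured 7.77, 13.5 and 15.4 CPM on *E. coli* and 56.8, 65.2, 62.0 and 75.4 CPM on *E. faecalis* (2.41 ± 0.32) and *fbxa-60* 8.12, 10.9 and 13.6 CPM on *E. coli* and 42.2, 46.7, 45.5 and 43.2 CPM on *E. faecalis* (2.04 ± 0.41). The *pals* genes, of which several mark infection by viruses and microsporidia, had 6 up and 0 down of 21 tested (28.6% up), with 1 up without *E. coli* replicate 1, 3 without *E. coli* replicate 2 and 10 without N2 on *E. coli* replicate 2 or with the length trend removed. *pals-6* rose from 0.591, 0.744 and 0.350 CPM to 6.88, 9.43, 6.15 and 7.90 CPM (3.70 ± 0.56, adjusted p = 7.34e-04) and was the robust member.

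Detoxification enzymes were called mostly upward, as were 85.1% of all changed genes, and the efflux pumps were mixed. Cytochrome P450s, the first-phase oxidases, had 21 up and 3 down of 63 tested (9 and 2 robust), with 10 up without *E. coli* replicate 1 and 12 without *E. coli* replicate 2. *cyp-37B1* rose from 1.31 to 1.997 CPM to 16.3 to 19.1 CPM (3.35 ± 0.52), *cyp-33C9* from 10.3 to 11.2 CPM to 36.0 to 41.0 CPM (1.83 ± 0.22) and *cyp-32B1* from 1.21 to 1.89 CPM to 11.1 to 13.5 CPM (3.03 ± 0.38). *cyp-35A1*, an inducible xenobiotic gene, had 0 counts on *E. coli* and 4.17, 3.21, 2.83 and 3.03 CPM on *E. faecalis*, at least 79.8-fold higher. Against this, *cyp-13A4* and *cyp-25A1* fell (5.31 to 13.98 CPM to 1.38 to 1.51 CPM for the latter, -2.80 ± 0.41). The second flavin monooxygenase to rise was *fmo-1*, at 4.04, 4.35 and 5.87 CPM on *E. coli* and 17.9, 14.3, 14.9 and 26.0 CPM on *E. faecalis* (1.95 ± 0.36), so 2 of 5 tested genes of that family were up.

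In the second phase, UDP-glucuronosyltransferases had 16 up and 5 down of 63 tested (9 and 1 robust), with 9 up without *E. coli* replicate 1. The fallers were 1 to 3 without any 1 of *E. coli* replicates 1 to 3 or *E. faecalis* replicates 2 and 4. *ugt-16* measured 3.82, 6.38 and 8.53 CPM on *E. coli* and 139.8, 96.1, 97.8 and 134 CPM on *E. faecalis* (4.24 ± 0.53, adjusted p = 1.36e-04), *ugt-21* rose from 6.19 to 9.86 CPM to 34 to 49.7 CPM (2.23 ± 0.33), and *ugt-50* from 15.7 to 19.2 CPM to 60.1 to 62.9 CPM (1.80 ± 0.24). Glutathione S-transferases had 10 up and 0 down of 45 tested (8 robust), and no left-out library moved that count past 1.5 times. *gst-5* rose from 10.7 to 12.9 CPM to 25.7 to 41.5 CPM (1.45 ± 0.23) and *gst-6* from 5.17 to 7.83 CPM to 44.0 to 65.0 CPM (3.12 ± 0.50). *gst-18* had 3 counts against 163 (ratio 41.3, counting interval 13.9 to 202) and *gst-19* 3 against 134 (ratio 33.9, interval 11.4 to 167). These neighbouring genes are alike in sequence, so their reads may be split between them. *gst-4*, the usual reporter of oxidative stress through SKN-1, measured 13.4, 13.3 and 17.8 CPM on *E. coli* and 26.1, 31.2, 21.5 and 27.1 CPM on *E. faecalis* and did not pass the test (0.84 ± 0.30, adjusted p = 0.0628).

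Short-chain dehydrogenases had 5 up and 2 down of 30 tested, beside 10.03% up and 1.76% down over all tested genes. The risers were 1 to 3 without *E. coli* replicate 1 or 3 or *E. faecalis* replicate 4. *dhs-21*, a carbonyl reductase, rose from 7.28 to 10.9 CPM to 27.9 to 44.2 CPM (2.02 ± 0.39), and *dhs-26* fell from 8.27, 11.1 and 3.78 CPM to 0.0444, 0.227, 0.942 and 0.0786 CPM (-4.73 ± 0.67). Of the efflux pumps of the third phase, 2 P-glycoprotein genes were up and 1 down of 14 tested, beside the same overall shares. The robust one was *pgp-1*, which fell from 127, 145 and 208 CPM to 38.7, 51.3, 52.4 and 36.4 CPM (-1.84 ± 0.29, adjusted p = 9.58e-04). The 2 risers were 0 to 1 without *E. coli* replicate 1 or 2 and 5 without *E. coli* replicate 3 or with the length trend removed.

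None of the 7 heme peroxidase and dual oxidase genes was called by edgeR or by DESeq2, *skpo-1* included, while 2 had an unadjusted p below 0.05. Residual *skpo-1* transcript was somewhat lower on *E. faecalis*, 1.78, 1.62, 2.26 and 1.65 CPM against 2.46, 2.35 and 2.66 CPM, and the libraries did not overlap, yet the change did not pass (-0.45 ± 0.21, adjusted p = 0.123). At *skpo-3* the values were 25.7, 29.6 and 49.8 CPM on *E. coli* and 25.3, 17.8, 11.9 and 26.1 CPM on *E. faecalis* (-0.78 ± 0.35, adjusted p = 0.115), with overlapping ranges. *bli-3*, the dual oxidase that supplies hydrogen peroxide, measured 13.7, 16.5 and 25.03 CPM on *E. coli* and 16.2, 14.1, 13.3 and 14.5 CPM on *E. faecalis* (-0.34 ± 0.22, adjusted p = 0.27). Beside them, 3 of 8 superoxide dismutase and catalase genes were called up and none down, against 10.03% and 1.76% over all tested genes. *sod-4*, the extracellular copper/zinc enzyme, went from 6.09, 5.60 and 7.27 CPM to 20.8, 21.2, 18.3 and 23.3 CPM (1.73 ± 0.27, adjusted p = 9.92e-04). *sod-5*, a cytosolic form, went from 0.124, 0.0783 and 0.0699 CPM to 0.577, 1.23, 1.13 and 0.707 CPM (3.19 ± 0.59). *sod-4* and *sod-5* were robust. The third riser was not: its call was lost without any 1 of the *skpo-1* libraries other than *E. faecalis* replicate 3. *mtl-1*, a metallothionein of the intestine, measured 12.1, 11.1 and 3.50 CPM on *E. coli* and 85.7, 130.4, 91.1 and 68.3 CPM on *E. faecalis* (3.38 ± 0.61, adjusted p = 0.00261).

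Heme and iron genes had the largest share of upregulated members of the 53 lists, which were chosen with earlier results of these data known. Of 16 tested, 8 were up and 1 down (50.0% and 6.25%, median log2 fold change 1.43 against 0.12 over all tested genes, and 0.88 when genes of low count were kept), and 7 of the 8 were robust. Among the transporters and heme-binding proteins of uptake, *hrg-1*, which moves heme out of lysosome-like stores of the gut, rose from 13.96, 12.4 and 13.8 CPM to 124, 125, 119.5 and 117 CPM (3.18 ± 0.40, adjusted p = 1.37e-04), a tight and separate pair of groups. *hrg-4*, the importer of the gut's outer membrane, went from 2.74, 2.62 and 4.47 CPM to 34.6, 21.1, 22.4 and 29.5 CPM (3.05 ± 0.53). *hrg-2*, a heme-binding membrane protein of the skin that is switched on at low heme, measured 1.49, 0.744 and 0.629 CPM on *E. coli* and 58.2, 30.9, 26.997 and 47.7 CPM on *E. faecalis* (5.36 ± 0.71, adjusted p = 2.23e-04).

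Export and delivery genes rose with them. *hrg-3*, a secreted peptide that carries heme from the mother's gut to embryos, measured 0, 0.117 and 0.559 CPM on *E. coli* and 28.6, 13.8, 15.1 and 32.1 CPM on *E. faecalis* (7.01 ± 1.05, adjusted p = 6.67e-04). *mrp-5*, the gut's heme exporter, rose from 119 to 158 CPM to 497 to 689 CPM (2.14 ± 0.30). *hrg-9*, a worm relative of human TANGO2 that acts in heme trafficking, had 0.840 to 1.33 CPM and 2.83 to 4.99 CPM (1.82 ± 0.48, adjusted p = 0.0188). It was called, but not in every fit that left out 1 library: its adjusted p was 0.096 without *E. coli* replicate 1 and 0.0754 without *E. coli* replicate 2. Genes of uptake, export and delivery thus rose in the same libraries.

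Iron genes on the same list were less uniform. *smf-3*, the gut iron importer, rose from 2.18, 2.70 and 3.71 CPM to 12.97, 9.89, 13.9 and 10.2 CPM (2.05 ± 0.28, adjusted p = 2.68e-04), and *fpn-1.2*, a ferroportin-type exporter, fell from 2.58, 2.66 and 2.52 CPM to 0.622, 0.908, 0.879 and 0.943 CPM (-1.62 ± 0.28, adjusted p = 0.0019). The ferritin genes, iron stores, were not called. *ftn-2* stood at 115 to 121 CPM and 169.7 to 217 CPM (0.73 ± 0.20, adjusted p = 0.0226, below the 2-fold threshold) and *ftn-1* at 0.280 to 1.21 CPM and 1.24 to 2.55 CPM (adjusted p = 0.279).

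**Figure D4:**
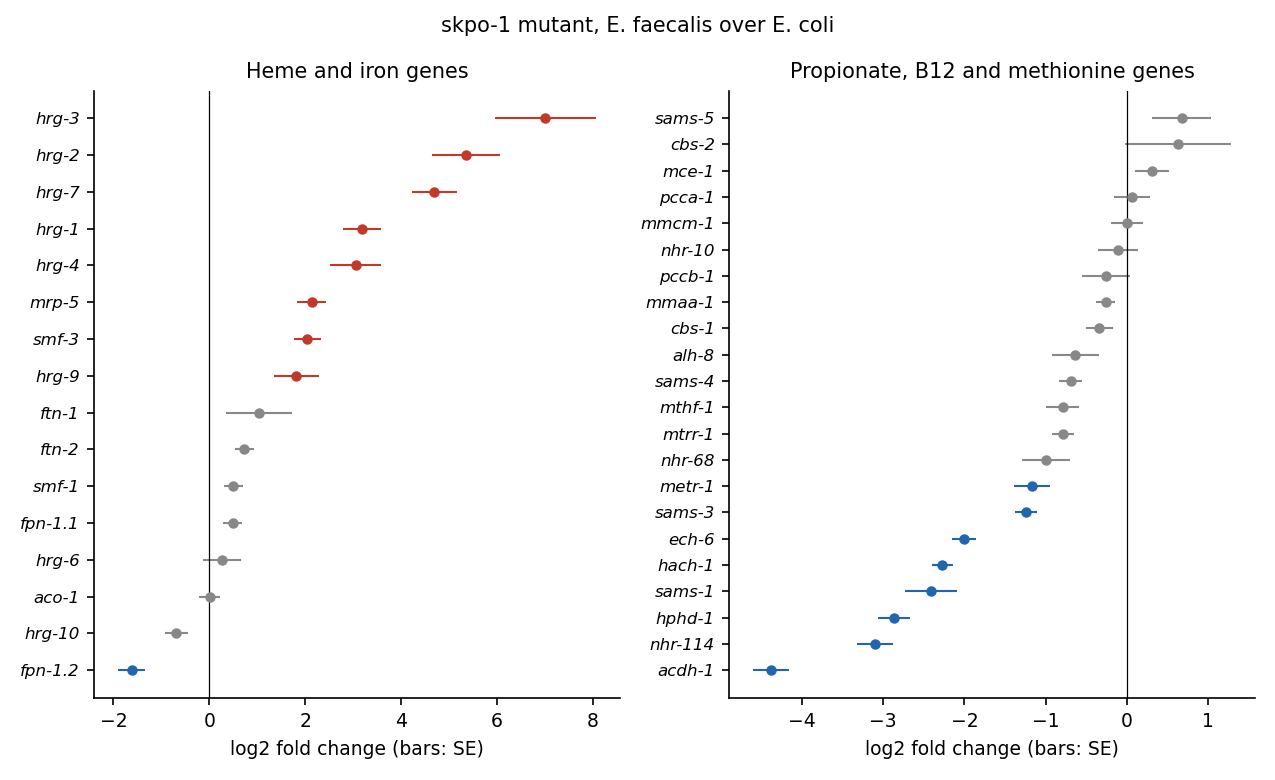
Log2 fold change of *E. faecalis* over *E. coli* in the *skpo-1* mutant (x axis, bars ± SE) for the tested heme and iron genes (left, 16) and the propionate, vitamin B12 and methionine genes (right, 22), ordered by value, with called genes in red (up) and blue (down) and the rest in grey. Called heme genes run up to 7.01 at *hrg-3*, and called genes of the right panel down to -4.38 at *acdh-1*.

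Several genes of propionate breakdown and the methionine cycle fell. Propionate is normally broken down by a vitamin B12-dependent route, and at low B12 the worm switches on a second route, the propionate shunt. Of 22 tested genes on this list, 0 were up and 8 down (36.4%, median -0.74), and all 8 were robust. The first enzymes of the shunt fell. Beside *acdh-1*, the hydratase *ech-6* fell from 498, 403 and 479 CPM to 112, 116, 114.3 and 117 CPM (-2.01 ± 0.15). The hydrolase *hach-1* fell from 381, 374 and 304 CPM to 74.7, 67.4, 77.2 and 73.4 CPM (-2.27 ± 0.13, adjusted p = 5.03e-08), and the transhydrogenase *hphd-1* from 557, 511 and 478 CPM to 73.9, 72.5, 72.3 and 63.7 CPM (-2.87 ± 0.20, adjusted p = 4.99e-07). The last enzyme, *alh-8*, measured 1162 to 1493 CPM and 582 to 1082 CPM and was not called (-0.63 ± 0.29, adjusted p = 0.1254).

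No gene measured of the B12-dependent route was called. Its carboxylase subunits, epimerase, mutase and mutase chaperone (*pcca-1*, *pccb-1*, *mce-1*, *mmcm-1*, *mmaa-1*) had log2 fold changes from -0.26 to 0.31, with adjusted p from 0.106 to 0.995. In the methionine cycle, the S-adenosylmethionine synthetase *sams-1* fell from 239.8, 287 and 389 CPM to 55.2, 43.7, 46.4 and 84.6 CPM (-2.41 ± 0.32, adjusted p = 2.34e-04), *sams-3* from 189 to 219 CPM to 83.4 to 95.9 CPM (-1.24 ± 0.14), and the B12-dependent methionine synthase *metr-1* from 401 to 467 CPM to 158 to 223 CPM (-1.17 ± 0.22). *ahcy-1*, which breaks down S-adenosylhomocysteine and stands outside the list, fell from 1990.2, 2054 and 2158 CPM to 799, 793, 813 and 815 CPM (-1.36 ± 0.22, adjusted p = 0.00114). Of the nuclear receptors that control these enzymes, 1 was called. *nhr-114*, a regulator of the methionine cycle, fell from 115, 106 and 93.9 CPM to 9.37, 15.5, 13.8 and 10.3 CPM (-3.10 ± 0.22), and *nhr-68*, a regulator of the shunt, measured 23.1 to 35.0 CPM and 11.3 to 19.2 CPM (-0.99 ± 0.30, adjusted p = 0.0315), just under the 2-fold threshold. *nhr-10*, another regulator of the shunt, measured 13.4, 17.4 and 18.7 CPM on *E. coli* and 16.7, 10.8, 12.7 and 20.8 CPM on *E. faecalis*, with overlapping groups (-0.11 ± 0.24, adjusted p = 0.762).

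Of 16 desaturases and elongases, 2 were up and 1 down (12.5% and 6.25%, against 10.03% and 1.76% of all tested genes), and 13 were not called. *fat-7* fell, while *fat-2* and *fat-3*, which add double bonds to make polyunsaturated fatty acids, rose. *fat-2* measured 440.3, 461 and 464 CPM on *E. coli* and 1084, 1075, 1031 and 1049 CPM on *E. faecalis* (1.22 ± 0.20, adjusted p = 0.00114) and *fat-3* 76.3, 90.3 and 69.8 CPM on *E. coli* and 198, 237, 188 and 217 CPM on *E. faecalis* (1.41 ± 0.17, adjusted p = 1.24e-04). *fat-6*, the close copy of *fat-7*, stood at 232 to 253 CPM and 269 to 306 CPM (0.22 ± 0.17, adjusted p = 0.356). The 2 copies share much of their sequence, so reads may be split between them. Lysosomal acid lipases, which release fatty acids from stored fat, had 3 up of 7 tested. *lipl-1* rose from 1.34, 1.84 and 1.05 CPM to 17.1, 23.9, 21.8 and 21.5 CPM (3.88 ± 0.42, adjusted p = 4.39e-05) and *lipl-2* from 2.58, 2.70 and 2.66 CPM to 28.1, 31.6, 29.7 and 33.4 CPM (3.53 ± 0.31, adjusted p = 7.54e-06).

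Of 53 lipid-binding and acyl-CoA genes, 4 were up and 3 down (7.55% and 5.66%, against 10.03% and 1.76% overall), and 46 were not called. *lbp-8*, a carrier that takes lipid signals from lysosome to nucleus, fell from 9.58, 9.98 and 9.16 CPM to 0.888, 1.04, 1.19 and 0.786 CPM (-3.30 ± 0.47, adjusted p = 4.45e-04). *lbp-3*, a secreted fatty acid-binding protein, rose from 34.9, 32.4 and 31.7 CPM to 147, 126.3, 125 and 138 CPM (2.02 ± 0.33), and *far-7* from 1.61 to 2.80 CPM to 10.6 to 15.96 CPM (2.56 ± 0.42). The risers were 2 without *E. coli* replicate 1 or replicate 3. So a lysosomal carrier fell while 2 lysosomal lipases rose in the same libraries.

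Digestive and lysosomal proteases had 6 up and 1 down of 23 tested (26.1% and 4.35%), and all 7 were robust. The cathepsin B-like *cpr-4* measured 490.1, 429 and 467 CPM on *E. coli* and 2267, 2903, 2440.3 and 2267 CPM on *E. faecalis* (2.42 ± 0.24, adjusted p = 2.11e-05) and *cpr-8* 10.2, 8.53 and 11.4 CPM on *E. coli* and 69.0, 68.1, 65.0 and 50.0 CPM on *E. faecalis* (2.65 ± 0.29). Of the aspartyl proteases, *asp-17* rose from 5.60, 6.07 and 9.23 CPM to 36.3, 43.4, 40.5 and 25.5 CPM (2.39 ± 0.27, adjusted p = 6.99e-05) and *asp-14* from 20.5 to 40.8 CPM to 110.2 to 175 CPM (2.07 ± 0.30). *asp-13* was the one that fell, from 199 to 230.0 CPM to 54.6 to 87.9 CPM (-1.59 ± 0.26). Summed intestinal markers were also higher on *E. faecalis* (893 to 1078 CPM) than on *E. coli* (355 to 463 CPM), with 1 of 4 called, *vha-6*, a subunit of the gut's proton pump (218, 266 and 273 CPM against 645, 726, 630.0 and 609 CPM, 1.37 ± 0.20). The part of that shift in the rise of gut proteases, lipases and heme genes was not tested, and in whole animals more cells of a type and more RNA per cell cannot be told apart.

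Some yolk protein genes fell, with a wide spread. Vitellogenins are made in the adult gut and carried to oocytes. Of 7 tested genes of yolk and its receptor, 3 were down and 0 up (median -1.42). *vit-1* measured 8053, 9941 and 6288 CPM on *E. coli* and 1357, 1603, 1909.6 and 463 CPM on *E. faecalis* (-2.60 ± 0.57, adjusted p = 0.00781), *vit-3* 16641, 22207 and 13110.0 CPM on *E. coli* and 2094, 3096, 3630.1 and 976 CPM on *E. faecalis* (-2.82 ± 0.75, adjusted p = 0.02) and *vit-4* 15617, 20688 and 13397 CPM on *E. coli* and 2601, 3020.2, 4238 and 1205 CPM on *E. faecalis* (-2.58 ± 0.68, adjusted p = 0.0185). The groups did not overlap, but replicate 4, the library low in long transcripts, held the lowest value of each. Without that library *vit-3* had an adjusted p of 0.0538 and *vit-4* of 0.0510, and both calls were also lost without *E. coli* replicate 1 (0.0590 and 0.0555) or replicate 2 (0.0645 and 0.0609), leaving *vit-1* as the only call of the list. *vit-3* and *vit-4* are near-identical copies and their reads cannot be assigned with certainty. *vit-2* stood at 31112, 40138 and 29563 CPM on *E. coli* and 27017, 39510.5, 40863 and 12001 CPM on *E. faecalis*, with overlapping groups (-0.17 ± 0.52, adjusted p = 0.83).

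Other reproductive genes were largely not called. Of 31 eggshell and oocyte genes 1 was down, *cpg-9*, at 33.6, 25.2 and 35.4 CPM on *E. coli* and 16.3, 11.5, 8.60 and 12.5 CPM on *E. faecalis* (-1.36 ± 0.35, adjusted p = 0.0172), lost without *E. coli* replicate 1 (0.0698). The median of that list was -0.47, and 2 were down without N2 on *E. coli* replicate 2. Of 35 P-granule and meiosis genes 1 was down, and it was *him-4*, which encodes hemicentin, a large protein of the extracellular matrix, at 94.8, 129 and 128 CPM on *E. coli* and 32.6, 41.0, 37.4 and 13.5 CPM on *E. faecalis* (-1.92 ± 0.42), lowest in replicate 4 (2 down without *E. coli* replicate 3 or *E. faecalis* replicate 3). Summed germ-line markers were 925 to 1790 CPM on *E. faecalis* and 2199 to 2755 CPM on *E. coli*, again lowest in replicate 4. Of 28 tested major sperm protein genes and 53 further sperm genes, none was called by edgeR or DESeq2, and 1 and 5 had an unadjusted p below 0.05. Among the further sperm genes 1 rose without *E. coli* replicate 3, *E. faecalis* replicate 3 or N2 on *E. coli* replicate 2.

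Histone genes, which are present in many identical copies, had 6 up and 1 down of 48 tested (12.5% and 2.08%, near the overall 10.03% and 1.76%), with 3 up without *E. coli* replicate 1 or replicate 2. The faller was lost in 6 of the 7 fits that left out a *skpo-1* library, and 4 fell without N2 on *E. coli* replicate 2 or with the length trend removed. *his-9* measured 2.58, 1.61 and 2.17 CPM on *E. coli* and 13.1, 12.6, 8.66 and 13.9 CPM on *E. faecalis* (2.51 ± 0.43) and *his-15* 2.80, 1.92 and 2.10 CPM on *E. coli* and 11.4, 9.92, 6.91 and 11.6 CPM on *E. faecalis* (2.13 ± 0.44), and both were robust, although reads of such copies are uncertain.

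The cuticle is a sheet of cross-linked collagens topped by cuticlins and other proteins, and hydrogen peroxide with heme peroxidases drives part of its cross-linking. Collagens had 26 members down and 9 up of 148 tested (17.6% and 6.08%), and 17 of the fallers but 2 of the risers were robust. Over all tested collagens 69 had a positive and 79 a negative log2 fold change, and the median of -0.15 lay between -0.52 and 0.49 when 1 library was left out, so it had no steady sign. *col-93* fell from 1762, 1429 and 2258 CPM to 362, 228, 112 and 385 CPM (-2.74 ± 0.49, adjusted p = 0.0025). *col-19*, the collagen of the adult cuticle, fell from 948, 791 and 1342 CPM to 333, 267, 154 and 278 CPM (-1.99 ± 0.36, adjusted p = 0.00261), and *col-124* from 1367, 1164 and 2087 CPM to 376, 235.0, 144 and 290.0 CPM (-2.56 ± 0.43). *col-122* fell from 1817 to 2250.1 CPM to 655 to 955 CPM (-1.26 ± 0.26), *col-20* from 1370.4 to 1995 CPM to 340.3 to 633 CPM (-1.60 ± 0.30) and *col-80* from 933 to 1492 CPM to 166 to 372 CPM (-2.07 ± 0.36). The upregulated collagens were few and less steady. Their number was between 2 and 5 without any 1 of the 7 *skpo-1* libraries other than *E. faecalis* replicate 1, 5 without N2 on *E. faecalis* replicate 2 or 3, and 14 without N2 on *E. coli* replicate 2 or 4. *col-76* was a robust riser, from 11.6 to 13.5 CPM to 24.2 to 29.1 CPM (1.08 ± 0.21).

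Cuticlins, insoluble proteins of the cuticle's ridges, had 11 up and 0 down of 29 tested (37.9%, median 1.19), yet none was robust: 0 were called without *E. coli* replicate 1, 4 without *E. faecalis* replicate 4, 6 without *E. coli* replicate 3, and 7 without *E. coli* replicate 2 or *E. faecalis* replicate 2 or 3. *cut-3* measured 4.04, 8.10 and 2.66 CPM on *E. coli* and 15.01, 31.4, 28.8 and 76.2 CPM on *E. faecalis* (2.93 ± 0.70, adjusted p = 0.0121, and 0.0692 without *E. coli* replicate 1). The *E. faecalis* libraries of *cut-3* all lay above the *E. coli* ones, with replicate 4 far above the others. Of 12 collagen-modifying enzymes 0 were called by edgeR or DESeq2 (3 with an unadjusted p below 0.05), and *pdi-2* measured 799, 885 and 837 CPM on *E. coli* and 725, 665, 662 and 538 CPM on *E. faecalis* (-0.38 ± 0.20, adjusted p = 0.17).

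Hedgehog-related genes, which in worms encode secreted proteins of the skin, had 7 up and 2 down of 65 tested (10.8% and 3.08%, against 10.03% and 1.76% overall). The count up was 3 without *E. coli* replicate 1 or 2, 4 without *E. faecalis* replicate 4 and 11 without N2 on *E. coli* replicate 4 or with the length trend removed. *grl-2* rose from 0.0311, 0.0783 and 0.140 CPM to 2.58, 2.17, 1.32 and 2.87 CPM (4.87 ± 0.91, adjusted p = 0.00308). *grd-4* fell from 1.15, 0.666 and 0.699 CPM to 0.0444, 0.130, 0.188 and 0.157 CPM (-2.69 ± 0.49), and *grd-3* from 46.4 to 65.1 CPM to 15.6 to 29.1 CPM (-1.32 ± 0.26).

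Muscle contractile genes had 4 members down and 0 up of 33 tested, 2 of them robust. The troponin T gene *tnt-2* fell from 481, 498 and 523 CPM to 166, 164, 115 and 101 CPM (-1.88 ± 0.31, adjusted p = 0.00134) and the actin gene *act-1* from 1759, 1728 and 2037 CPM to 893, 864, 733 and 786 CPM (-1.17 ± 0.26). The fallers were 9 without N2 on *E. coli* replicate 2, the other library low in long transcripts, and 10 with DESeq2, 8 with median-of-ratios scaling and 7 with the authors' scaling. A riser, 1, appeared without *E. faecalis* replicate 1. Summed body muscle markers were also lower on *E. faecalis* and lowest in its replicate 4, as given above. Most of these 4 markers are members of this list too, so the sum is not a separate observation. None of the 4 was called, and their log2 fold changes ran from -1.48 to 0.49. The part of body muscle in these calls was not tested.

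Stress pathways were touched gene by gene. Of 14 genes of osmotic balance, 4 were up (2 without *E. coli* replicate 1, 7 with the length trend removed) and 0 down. Beside *hmit-1.1*, the trehalase gene *tre-3* rose from 24.1, 29.3 and 29.2 CPM to 95.2, 97.3, 84.7 and 84.9 CPM (1.72 ± 0.16, adjusted p = 1.11e-05). *gpdh-1*, the glycerol-making enzyme that reports osmotic stress, measured 3.45, 2.35 and 7.34 CPM on *E. coli* and 10.8, 12.5, 8.60 and 7.19 CPM on *E. faecalis* and missed the threshold (1.18 ± 0.40, adjusted p = 0.0522). Of 11 hypoxia and hydrogen sulfide genes, 2 were up (1 without *E. coli* replicate 1 or 3) and *rhy-1*, a membrane protein that holds down the hypoxia factor HIF-1, was down, from 20.4, 19.5 and 15.4 CPM to 7.06, 7.58, 8.73 and 6.64 CPM (-1.30 ± 0.18, adjusted p = 2.95e-04). Of 47 heat shock and mitochondrial chaperone genes 1 was called up, the small heat shock gene *hsp-17*, at 11.97, 11.001 and 15.7 CPM on *E. coli* and 51.2, 86.8, 67.8 and 39.7 CPM on *E. faecalis* (2.25 ± 0.41, adjusted p = 0.00254). Several others had an adjusted p below 0.05 but a change under 2-fold. Most of these were falls, and their log2 fold changes ran from -0.97 to 0.85. Heat shock risers were 2 without N2 on *E. coli* replicate 2 or 3, and 1 fell without *E. faecalis* replicate 3. None of 13 genes of endoplasmic reticulum stress was called by edgeR or DESeq2 (4 with an unadjusted p below 0.05), and its reporter *hsp-4* stood at 459 to 544 CPM and 337 to 403 CPM (-0.49 ± 0.21, adjusted p = 0.109).

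Nuclear hormone receptors, a family of transcription factors much expanded in worms, had 45 up and 2 down of 194 tested (23.2% and 1.03%), 13 and 2 of them robust. The count up was 14 without *E. coli* replicate 1, 23 without *E. coli* replicate 2, and 25 and 27 without *E. faecalis* replicates 2 and 4. The fallers were 4 without *E. faecalis* replicate 4. *nhr-74* fell from 2.67, 3.17 and 3.36 CPM to 0.133, 0.0324, 0 and 0.0786 CPM (-5.49 ± 0.47, adjusted p = 1.42e-05). Among risers, *nhr-21* went from 7.59 to 9.09 CPM to 18.9 to 24.7 CPM (1.43 ± 0.24) and *nhr-79* from 3.98 to 4.66 CPM to 11.1 to 13.2 CPM (1.46 ± 0.23). Most receptors of this family are of low level, where the median over all genes was also above 0.

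Many neuropeptide and cilium genes were called up. Neuropeptide genes had 30 up and 0 down of 87 tested (34.5%, median 0.97, against 0.53 for all genes of 1 to 10 CPM), of which 8 were robust, with 13 called without *E. coli* replicate 1 and 11 without *E. coli* replicate 2. The FMRFamide-like peptide gene *flp-9* rose from 9.42, 11.3 and 11.4 CPM to 31, 28.9, 22.9 and 31.6 CPM (1.42 ± 0.28, adjusted p = 0.00398), *flp-18* from 6.73 to 9.16 CPM to 15.01 to 20.7 CPM (1.17 ± 0.23), and *flp-11*, which is known for its part in sleep, from 6.96 to 7.95 CPM to 13.5 to 17.9 CPM (1.14 ± 0.23). *nlp-8* went from 4.04 to 5.80 CPM to 11.7 to 17.9 CPM (1.45 ± 0.27). Genes of the sensory cilium had 15 up and 0 down of 44 tested (median 1.15), 3 without *E. coli* replicate 1 and 26 without N2 on *E. coli* replicate 2. With the length trend removed 24 were up. The robust pair was *klp-11*, a subunit of the ciliary kinesin (1.55 to 2.66 CPM to 5.91 to 7.66 CPM, 1.66 ± 0.31), and *osm-5*, an intraflagellar transport gene (0.560 to 0.861 CPM to 1.87 to 2.95 CPM, 1.75 ± 0.35).

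Not every neuronal list had calls in the main fit. None of 14 synapse genes was called by edgeR or DESeq2 (5 with an unadjusted p below 0.05, and 1 up without *E. coli* replicate 3, *E. faecalis* replicate 1 or 3 or N2 on *E. coli* replicate 2), and *snb-1*, which encodes synaptobrevin, measured 117, 100.1 and 116 CPM on *E. coli* and 131, 123.3, 126.1 and 136 CPM on *E. faecalis* (0.22 ± 0.14, adjusted p = 0.255). The median log2 fold change of the synapse list was 0.67 with the length trend removed. Summed neuronal markers were 168 to 186 CPM on *E. faecalis* and 139 to 152 CPM on *E. coli*, and their part in the neuropeptide counts was not tested. Guanylyl cyclases, which serve sensing in neurons, had 4 up and 0 down of 23 tested, beside 10.03% and 1.76% over all tested genes. *gcy-29* was the robust one, from 0.187, 0.313 and 0.0699 CPM to 1.38, 2.07, 1.70 and 1.02 CPM (2.90 ± 0.43, adjusted p = 6.09e-04). That count was 1 or 2 without any 1 of the *skpo-1* libraries other than *E. faecalis* replicate 4, and 7 without N2 on *E. coli* replicate 2. With the length trend removed it was 8. Of 1301 chemoreceptor genes listed, 57 had enough counts to be tested. Of these, 8 were up and 1 down, near the overall 10.03% and 1.76%. The faller was *srh-237*, at 4.198, 5.48 and 7.69 CPM on *E. coli* and 0.355, 0.421, 0.565 and 0.511 CPM on *E. faecalis* (-3.64 ± 0.41). The risers were 2 to 5 without any 1 of the *skpo-1* libraries other than *E. faecalis* replicate 3, and 13 without N2 on *E. coli* replicate 2. Insulin-like peptide genes had 5 up and 1 down of 29 tested, beside the same overall shares. The risers were 0 to 2 without any 1 *skpo-1* library and 9 without N2 on *E. coli* replicate 2, whereas the faller *ins-34* was robust (2.80, 3.60 and 3.64 CPM on *E. coli* and 0.444, 0.357, 0.691 and 0.786 CPM on *E. faecalis*, -2.56 ± 0.42).

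Genes of protein synthesis, protein breakdown and respiration were not called by edgeR or DESeq2: 0 of 81 cytosolic ribosomal protein genes (median -0.09), 0 of 31 proteasome subunits (median -0.49) and 0 of 52 respiratory chain genes (median -0.04). Unadjusted p was below 0.05 in 2 of the ribosomal, 28 of the proteasome and 2 of the respiratory genes. *rpl-3* measured 3591, 3054 and 3449 CPM on *E. coli* and 3033, 2803, 2774 and 3240.1 CPM on *E. faecalis* (-0.18 ± 0.23, adjusted p = 0.58) and *rpn-1*, a proteasome subunit, 596, 683 and 551 CPM on *E. coli* and 326, 356, 411 and 198 CPM on *E. faecalis* (-0.92 ± 0.32, adjusted p = 0.0526), lowest in replicate 4. The remaining lists had few calls in number, beside 10.03% up and 1.76% down over all tested genes. Up were 2 of 26 molting genes, 2 of 50 transthyretin-like genes and 1 of 22 amino acid and peptide transporters. Of 60 abu and pqn genes 2 were up and 1 down, and of 14 genes of the TGF-beta body size pathway 2 were up. Each of these counts lay between 0 and 4 when any 1 library was left out.

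**Figure D5:**
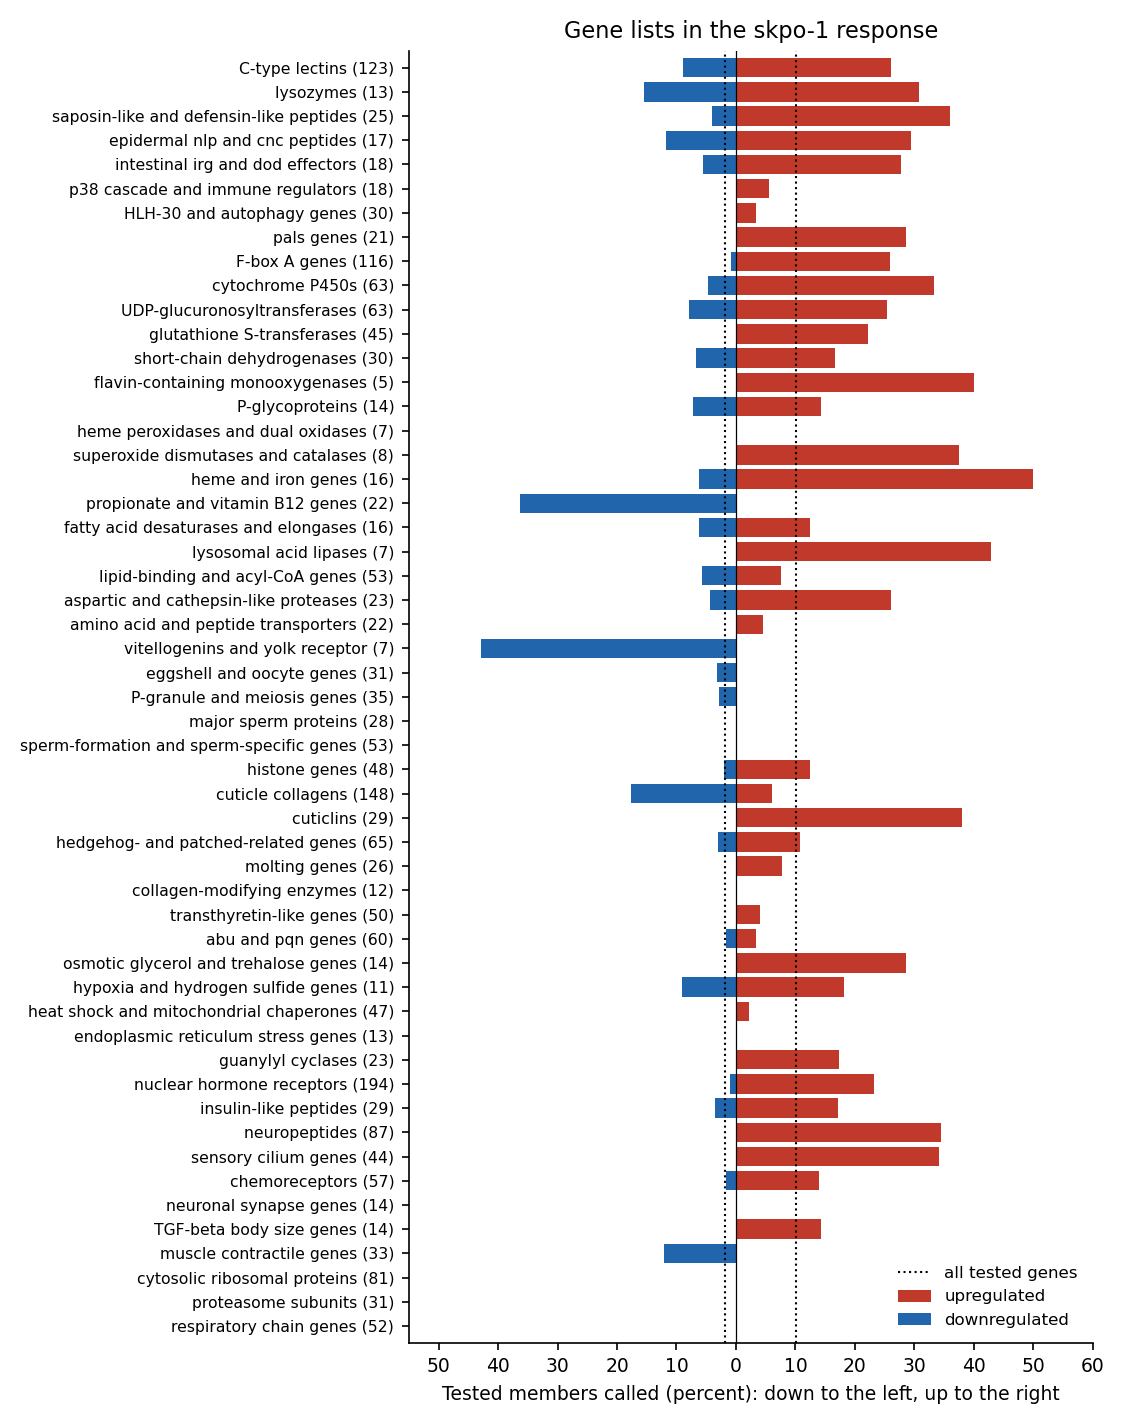
Percent of tested members called down (left, blue) and up (right, red) in the *skpo-1* mutant on *E. faecalis* for each of 53 gene lists, with the number tested in parentheses. The lists were chosen with earlier results of these data known. Dotted lines give the shares over all tested genes, 1.76% down and 10.03% up. Heme and iron genes reach 50.0% up, and vitellogenins with 42.9% and propionate genes with 36.4% reach furthest down.

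Whether the mutant's response differed from that of N2 was tested as the difference between both responses in 1 fit. No gene passed edgeR's test (smallest adjusted p = 0.0968), while 1216 of 15685 genes (7.75%) had an unadjusted p below 0.05 and DESeq2 on the same genes called 63. The count was 24 without N2 on *E. faecalis* replicate 1, 3 without *skpo-1* on *E. coli* replicate 1, and 1 without N2 on *E. coli* replicate 2. Of the 1849 genes changed in the mutant, 1828 had the same sign of change in N2, and 194 had an unadjusted p of the difference below 0.05.

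The 5 changed genes with the lowest p of that difference are given in turn. *fmo-2* rose in both, with log2 fold changes of 6.64 in the mutant and 8.77 in N2 (adjusted p = 0.0968 for the difference). Its ranges overlapped on *E. faecalis*, 572 to 743 CPM in the mutant and 698 to 787 CPM in N2, but not on *E. coli*, 4.79 to 8.46 CPM against 1.04 to 2.20 CPM. *C30G12.2* fell by 5.82 on the log2 scale in the mutant and by 3.92 in N2 (adjusted p = 0.161 for the difference), and here too the ranges were apart on *E. coli*, at 49.5 to 74.1 CPM against 16.3 to 17.5 CPM. *C50F7.5* rose less in the mutant (2.05 against 6.08, adjusted p = 0.333 for the difference). It stood at 28.7 to 45.5 CPM on *E. coli* in the mutant against 1.67 to 7.44 CPM in N2, and its call in the mutant was lost in 2 fits, 0.101 without *E. coli* replicate 1 and 0.0754 without *E. coli* replicate 2. *asp-17* and *F55G11.2* rose more in the mutant. *asp-17* measured 25.5 to 43.4 CPM on *E. faecalis* in the mutant against 6.10 to 8.01 CPM in N2 (2.39 against 0.56, adjusted p = 0.432 for the difference), and *F55G11.2* 7.66 to 16.2 CPM against 2.38 to 8.21 CPM (3.04 against 0.47, adjusted p = 0.432 for the difference). None of these differences passed the threshold.

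By list, the share of genes with an unadjusted p of the difference below 0.05, 7.75% over all tested genes, varied widely. It was 0 of 22 for propionate and B12 genes and 0 of 16 for desaturases and elongases. The lists above 20% were major sperm proteins (19 of 28), flavin monooxygenases (2 of 5), further sperm genes (21 of 53), heme and iron genes (6 of 16), irg and dod genes (6 of 18), lysosomal acid lipases (2 of 7), glutathione S-transferases (12 of 45), lipid-binding and acyl-CoA genes (13 of 53) and lysozymes (3 of 13). *hrg-7* had log2 fold changes of 4.69 in the mutant and 3.17 in N2 (adjusted p = 0.506 for the difference) and *hrg-1* of 3.18 and 1.90 (adjusted p = 0.544 for the difference). None of the sperm genes was called in the mutant, and the further sperm genes had a median difference of -1.38 on the log2 scale (mutant minus N2). Major sperm protein genes are near-identical copies, so the 19 are not independent. None of the neuropeptide genes (87) or guanylyl cyclase genes (23) had an unadjusted p of the difference below 0.05. A p above 0.05 does not show that the responses were equal.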

How the data were processed

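RNA-seq of whole animals (75 nt paired reads) was processed by the authors with Trimmomatic 0.36 and Salmon 1.2.1 against WBcel235, and the deposited expected counts per gene (estimated counts already whole, not normalized) were tested here. The deposited normalized counts (signal, divided by the authors' DESeq2 1.26.0 factors, which differ by gene and library) gave scaling factors for 1 alternative. Of 21982 listed genes, 19793 had a symbol. The 14 libraries, with 15174830 to 36682565 counts each, were fitted in 1 model with edgeR 4.0.16 (quasi-likelihood test, TMM scaling, filterByExpr with a minimum count of 10), 1 coefficient per group, after tests on simulated data. Standard errors came from the fold change and its F statistic. A call required an adjusted p below 0.05 and a log2 fold change of at least 1. Counting intervals are exact binomial at 95%, and a floor is 3 counts over a group. The alternatives were DESeq2 1.42.0, other scalings, filters and thresholds, the 7 libraries alone, a replicate term, and leaving out each library.

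Genes named are *skpo-1*, the 12 largest changes in each direction (mean of at least 10 CPM, no overlap), the 10 most abundant changed genes, up to 4 called members of each of 53 lists, the 5 smallest p of the difference, and fixed sentinels. Other genes were named after their values had been seen. Members and lists were chosen with earlier results of these data known.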

Additional observations from a re-analysis of the deposited data

Results flagged for a closer look

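Among groups of 4 *E. faecalis* libraries, 1 per named gene and gene list, 14 of 219 (6.39%) had a library standing apart by Dixon's criterion (a gap to the nearest library that takes up most of the group's range). Chance alone flags about 5% of such groups, so the number is near that. Replicate 4 stood apart in *acdh-1* (61.2 CPM, others 44.3 to 46.9), *hphd-1* (63.7 CPM, others 72.3 to 73.9), *clec-210* (1.97 CPM, others 0.908 to 1.0) and *Y49F6B.8* (6.64 CPM, others 15.01 to 16.5). Replicate 3 was the low one in *col-122* (655 CPM, others 917 to 955), *col-20* (340.3 CPM, others 613 to 633) and *asah-1* (138 CPM, others 184 to 189). It was also low in the mean log2 level of major sperm protein genes (1.82, others 2.98 to 3.21), of further sperm genes (1.27, others 1.89 to 1.97) and of lipid-binding genes (4.62, others 4.73 to 4.75). Replicate 2 was high in *clec-60* (103.6 CPM, others 34.7 to 41.1), *fat-7* (3.31 CPM, others 2.44 to 2.57) and *gst-19* (1.88 CPM, others 1.14 to 1.256). Replicate 1 was low in *cyp-13A7* (10.8 CPM, others 49.1 to 54.2). In each called gene the library that stood apart still lay on the same side of every *E. coli* library.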

How the results depend on the processing

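Settings that moved a main count by over 1.5 times were the adjusted p below 0.01 (794 changed, 644 up, 150 down) and single libraries. Leaving out 1 library gave from 774 to 2368 changed genes, from 592 to 2003 up and from 182 to 365 down, lowest without *skpo-1* on *E. coli* replicate 1. DESeq2 gave 2144 changed genes, median-of-ratios scaling 1830, the authors' factors 1861, no filter on low counts 1700, a filter of 1 CPM 1755, the 7 libraries alone 2429, both libraries low in long transcripts left out 1998, and the length trend removed 2236. The count of genes that differed between the responses, 0, was 63 with DESeq2, 2 without a filter, 2 without both libraries low in long transcripts, and from 0 to 24 without 1 library. The median over all tested genes, 0.12, was 0.06 under median-of-ratios scaling. With the replicate number as a block, 1535 genes changed. Residuals of same-numbered *skpo-1* libraries correlated from -0.53 to 0.14 over 3 pairs, too few to tell whether the numbers pair the libraries. Counts of list members, beside those given with each list, moved by over 1.5 times with the length trend removed (2 p38 cascade genes up, 3 saposin-like genes down, 4 molting, 3 transporter, 2 heat shock, 2 synapse genes and 1 muscle gene up, 0 abu and pqn genes down), with DESeq2 (10 *pals*, 11 hedgehog-related and 23 cilium genes up, 4 histone and 3 saposin-like genes down), with the 7 libraries alone (10 *pals*, 8 irg and dod, 18 cuticlin, 14 collagen, 12 hedgehog-related, 10 insulin-like and 23 cilium genes up), with the authors' factors (2 guanylyl cyclases up), without both libraries low in long transcripts (8 insulin-like genes up), and for chemoreceptors with a filter of 1 CPM (3 up) or none (14 up). Other moves of list counts, to 5 or fewer or under the adjusted p below 0.01, are left out. The sign turned for 5 genes, none of them called. *hlh-30* had -0.0051 with DESeq2, -0.0058 with median-of-ratios scaling and from -0.16 to 0.34 without 1 library. *vit-2* had 0.073 without both libraries low in long transcripts, 0.15 with the length trend removed and from -0.36 to 0.092 without 1 library. *mmcm-1* had 0.023 with a filter of 1 CPM, 0.0064 without both libraries, 0.17 with the length trend removed and from -0.082 to 0.10 without 1 library. *nhr-10* had from -0.30 to 0.027 without 1 library, and *bli-3* had 0.16 with the length trend removed. The causes were not tested. Depth limits genes below 1 CPM, whose folds rest on few counts.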

Other observations

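Genes outside the lists, chosen after their values had been seen, included further lysosomal enzymes. *ctsa-4.1* and *ctsa-4.2*, cathepsin A-like carboxypeptidases, measured 10.6, 11.8 and 17.8 CPM on *E. coli* and 215, 163, 153 and 201 CPM on *E. faecalis* (3.78 ± 0.50) and 19.2, 21.96 and 30.1 CPM on *E. coli* and 259, 250.1, 204 and 231 CPM on *E. faecalis* (3.32 ± 0.42). The acid ceramidase gene *asah-1* rose from 32.02 to 39.0 CPM to 138 to 189 CPM (2.27 ± 0.26), the legumain gene *lgmn-1* from 57.8 to 78.8 CPM to 223 to 245 CPM (1.80 ± 0.28), and the lysosomal nuclease *nuc-1* from 50.1 to 59.7 CPM to 133 to 183 CPM (1.54 ± 0.19). *adh-1*, an alcohol dehydrogenase, went from 49.4 to 60.5 CPM to 329.9 to 529 CPM (2.94 ± 0.24), and *lea-1*, which encodes a protein of desiccation tolerance, from 379 to 511 CPM to 1282 to 1808 CPM (1.92 ± 0.36). In the other direction, *pmt-2*, an enzyme of phosphocholine synthesis that uses S-adenosylmethionine, fell from 469.8 to 597 CPM to 134 to 199 CPM (-1.62 ± 0.28), and *msra-1*, a methionine sulfoxide reductase, from 96.8 to 177 CPM to 12.1 to 20.01 CPM (-3.10 ± 0.45). Groups did not overlap in any of these 9 genes, nor in 45.7% of all tested genes.

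Calls were unevenly spread over the chromosomes. Upregulated genes made up 14.6% of tested genes on chromosome V and 11.6% on X, against 6.43% on I and 6.73% on III. Downregulated genes made up 3.26% on X and 2.63% on V, against 0.764% on I and 0.758% on III. The chromosomes also differed in level. A mean of at least 10 CPM was reached by 1221 of 3122 tested genes on V and 872 of 2209 on X. On I it was 1484 of 2488 and on III 1448 of 2376. Upregulated genes were concentrated at low level, and the part of level in this spread was not tested. These are shares of genes in 1 set of libraries, given as a description.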
